A study of Mus musculus with 30 samples.

Results

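The aryl hydrocarbon receptor (AhR) pathway was followed outside the Cyp1 family through 8 genes: the receptor Ahr, its partner Arnt, the repressors Ahrr and Tiparp, and the target enzymes Nqo1, Aldh3a1, Cyp2s1 and Xdh. They were chosen by symbol, as the probe set mapped to each, and all 8 were among the 18784 genes measured, with 1 probe set each. Expression came from microarrays of preputial glands, modified sebaceous glands of the male mouse, in tissue labelled preputial gland duct. The mice had the B6 background and ate food with benzo[a]pyrene (BaP), a carcinogenic combustion product and AhR ligand, at about 12.5 mg/kg/day from 6 weeks of age. The 3 genotypes were a double knockout that lacks Cyp1a1 and Cyp1b1 (DKO), a knockout of Cyp1a1 alone (KO) and wild type (WT), each with 2 mice on 2 arrays at the start and after 4, 8, 12 or 16 weeks of BaP. The study follows squamous cell carcinoma forming in the duct. Mice at week 0 were the only ones without BaP and also the youngest, so exposure and age cannot be told apart. In whole glands, fewer cells of a type and less RNA per cell cannot be told apart either.

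AhR is a transcription factor held in the cytoplasm by chaperones. A ligand such as BaP sends it to the nucleus, where it pairs with ARNT and binds response elements with a short common core, and the genes it switches on include Cyp1 enzymes that break the ligand down. AHRR and TIPARP are also induced and act back on the receptor, AHRR by competing for ARNT and TIPARP by ADP-ribosylating the receptor complex. In skin, long-lived AhR ligands are known for chloracne, in which sebaceous glands are lost and ducts keratinize.

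The response element core GCGTG was searched on both strands in the 250 bases before the start of each gene, in RefSeq promoter windows of mouse build GRCm38.p6, which listed 5 of the 8 genes (Arnt, Ahrr, Tiparp, Nqo1 and Cyp2s1). Such a core stood in 28.2% of 32851 windows of that length. Of the 5 windows, 3 held it: Ahrr had 3 copies, 107, 82 and 27 bases before the start, and Tiparp and Arnt had 1 each, for Tiparp 170 bases before the start on the opposite strand. The longer form TNGCGTG, which contains the core, occurred in 4.1% of all windows and in 1 of the 5, that of Ahrr. The windows below are those of the repressors, with the core or its reverse complement CACGC in capitals, and that of Nqo1, which held neither. They lie at chr13:74292332-74292581 (minus strand) for Ahrr, chr3:65528197-65528446 (plus strand) for Tiparp and chr8:107403206-107403455 (minus strand) for Nqo1, and are written 5′ to 3′ along each gene. A match is only a description of the letters and does not show binding, and a window without one can have response elements elsewhere.
Ahrr: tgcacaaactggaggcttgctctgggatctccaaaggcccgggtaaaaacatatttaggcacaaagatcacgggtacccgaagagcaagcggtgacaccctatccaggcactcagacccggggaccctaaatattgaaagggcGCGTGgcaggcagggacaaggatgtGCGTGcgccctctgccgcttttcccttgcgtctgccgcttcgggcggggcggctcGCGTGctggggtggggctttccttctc
Tiparp: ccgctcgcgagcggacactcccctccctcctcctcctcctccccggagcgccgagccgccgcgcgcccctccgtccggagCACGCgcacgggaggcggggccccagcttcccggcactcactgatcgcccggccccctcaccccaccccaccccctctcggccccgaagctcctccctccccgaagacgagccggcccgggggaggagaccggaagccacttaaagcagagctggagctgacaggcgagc
Nqo1: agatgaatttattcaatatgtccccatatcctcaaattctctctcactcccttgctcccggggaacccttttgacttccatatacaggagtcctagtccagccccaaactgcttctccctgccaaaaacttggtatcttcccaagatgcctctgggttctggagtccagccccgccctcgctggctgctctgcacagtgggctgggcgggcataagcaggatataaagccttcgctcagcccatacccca

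The arrays differed in range. The standard deviation of all log2 values was 1.70 to 2.08 on 21 arrays and 1.15 to 1.42 on the other 9, here called narrow-range arrays. These were 8 of the 10 arrays labelled DKO, all but week 0 replicate 1 and week 12 replicate 2, and week 12 replicate 2 of KO. Their 5th percentile of log2 values was 3.79 to 4.02, against 2.69 to 3.28 on the others, and their 95th was 7.59 to 8.43, against 8.89 to 9.41, so low genes read higher and high genes lower on them. The number in each array's description split the arrays in a similar way: all WT arrays, 9 KO arrays and DKO week 0 replicate 1 had numbers 1 to 20, and the other DKO arrays and KO week 12 replicate 2 had numbers 22 to 33. Only KO week 12 and DKO week 0 had arrays of both number ranges, so a fit with the range as a block rests on those groups for its adjustment. Sebocyte markers were present in every group. In exposed DKO arrays 4 to 8 of 9 were above the array median, and in exposed KO arrays 7 to 8 of 9. The deleted genes did not check the labels, because where their probes lie relative to the deletions is not given in the sources used here. Cyp1b1 had a mean log2 intensity of 10.24 in DKO at weeks 4 to 16, 8.47 in KO and 6.51 in WT, so its probe set read highest in the genotype labelled as lacking it.

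Within DKO, 5 of the 8 genes had a higher mean on BaP than before it, beside 52.9% of all genes. The largest differences were those of 4 genes, the repressors Ahrr and Tiparp and the enzymes Nqo1 and Aldh3a1. Their mean differences, weeks 4 to 16 minus week 0, lay between 1.21 and 1.41 on the log2 scale. Only Nqo1 passed an adjusted p of 0.05 over all genes. The receptor, its partner, Cyp2s1 and Xdh had differences between -0.48 and 0.41, and none passed. That 1 of 8 genes was called stands beside 183 of 18784 genes measured, or 0.974% (for higher genes, 0.57%). The median difference of the 8 genes was 0.81, against 0.04 over all genes.

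**Figure D1:**
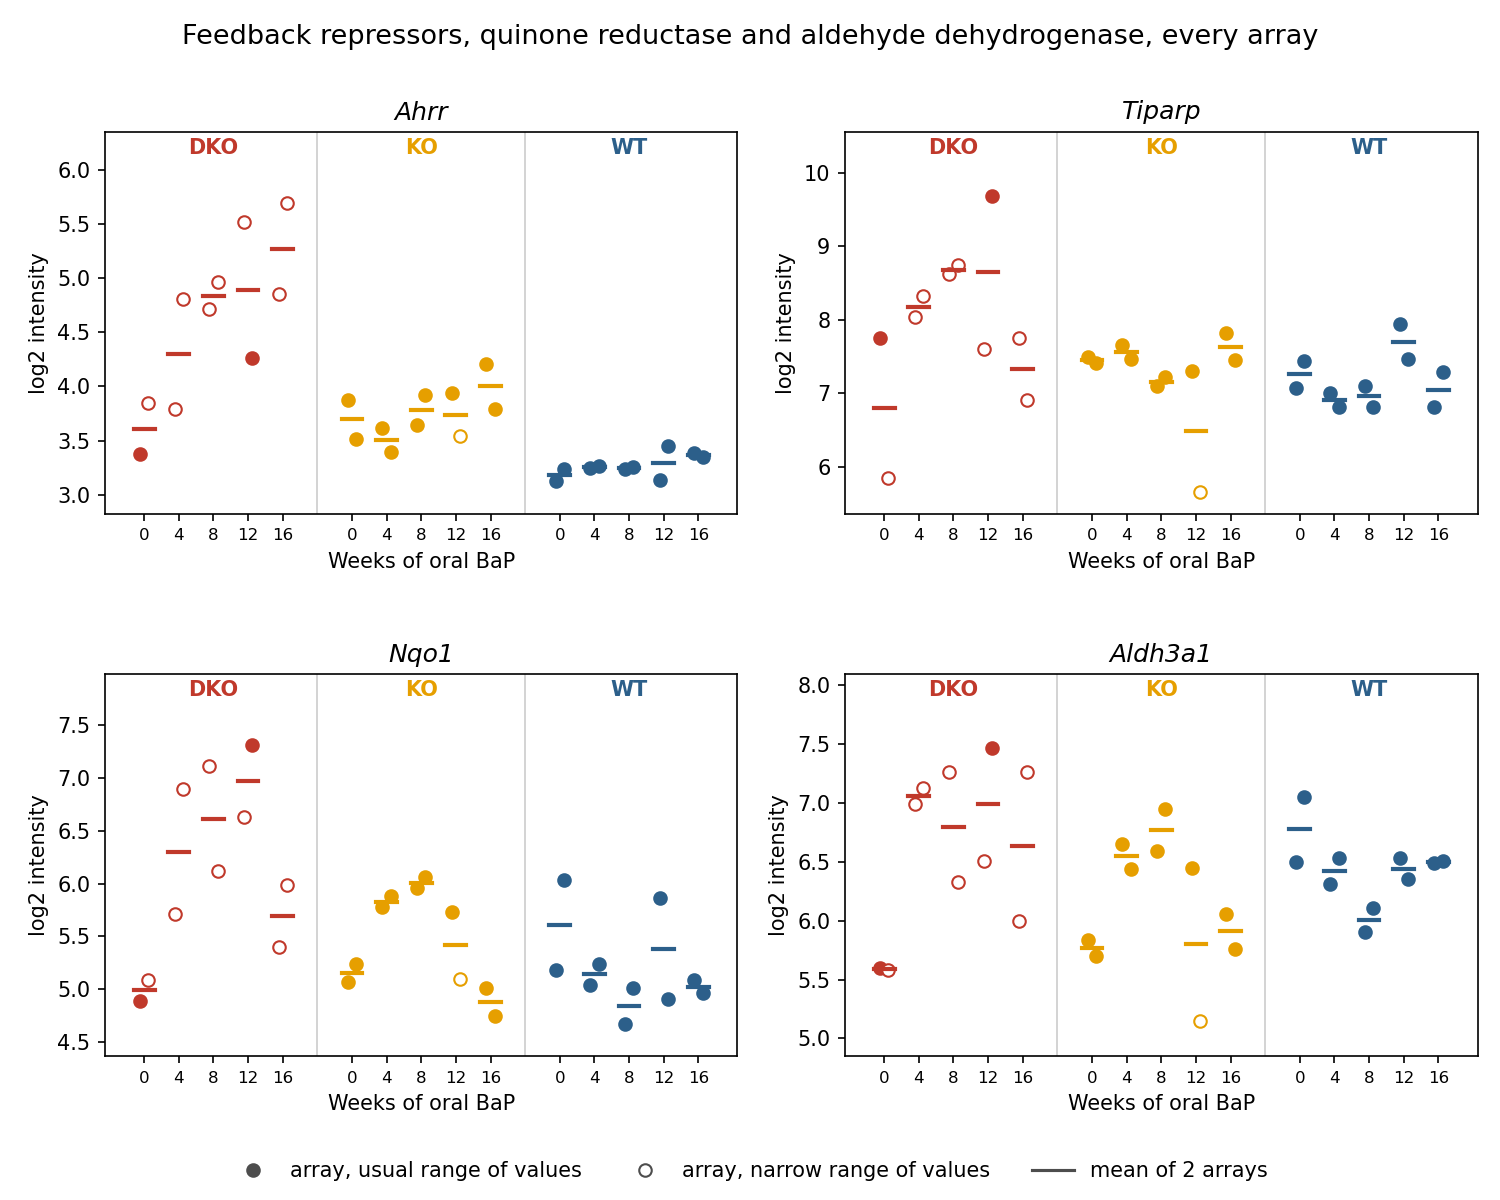
Log2 intensity (vertical axis) of Ahrr, Tiparp, Nqo1 and Aldh3a1 on each of the 30 arrays, by genotype and weeks of BaP (horizontal axis). Circles are arrays, open where the range of values was narrow, and bars are means of 2 arrays. Nqo1 and Aldh3a1 lie above both week 0 arrays on all 8 exposed DKO arrays, and Ahrr stays between 3.12 and 3.45 on every WT array.

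Nqo1 encodes a quinone reductase that detoxifies quinones, such as those formed from BaP. On the DKO arrays its log2 intensity was 4.89 and 5.09 at week 0, 5.71 and 6.89 at week 4, 7.11 and 6.12 at week 8, 6.63 and 7.31 at week 12, and 5.40 and 5.98 at week 16. All 8 exposed arrays lay above both week 0 arrays, highest at week 12 and lowest at week 16. Nqo1 rose in DKO by 1.40 ± 0.33 log2 units (a 2.64-fold difference, limma adjusted p = 0.0421, standard error over 8 against 2 arrays). That call did not hold under every setting. With the replicate number as a block the adjusted p was 0.0514, with array medians aligned it was 0.0627, and without DKO week 0 replicate 1 it was 0.123. Leaving out DKO week 4 replicate 2 (0.0503), any WT array of weeks 4, 8 or 16 (0.0605 to 0.0623) or any KO array of weeks 0, 4, 8 or 16 (0.0548 to 0.0597) also ended the call, the WT and KO arrays only through the spread that all groups share. With array weights the standard error was 0.65 and the limma adjusted p 0.999, with only the groups compared it was 0.849, and within label numbers 22 to 33 it was 0.861. Without the narrow-range arrays, which left 1 exposed DKO array (week 12) and 1 at week 0, the difference was 2.42 (limma adjusted p = 0.00189), where those lone arrays are assumed to vary like the other groups.

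On KO arrays Nqo1 read 5.07 and 5.24 at week 0, 5.78 and 5.88 at week 4, 5.96 and 6.06 at week 8, 5.73 and 5.10 at week 12, and 5.01 and 4.75 at week 16. On WT arrays it read 5.18 and 6.04 at week 0, 5.04 and 5.24 at week 4, 4.67 and 5.02 at week 8, 5.86 and 4.90 at week 12, and 5.09 and 4.97 at week 16. The KO arrays of weeks 4 and 8 stood above their week 0 arrays and those of week 16 below them, while no exposed WT array exceeded both week 0 arrays. The differences, 0.38 ± 0.33 in KO and -0.51 ± 0.33 in WT, did not pass (limma adjusted p = 1 for each).

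Aldh3a1 encodes an aldehyde dehydrogenase that oxidizes aromatic and lipid-derived aldehydes. In DKO it read 5.59 and 5.58 at week 0, 6.99 and 7.13 at week 4, 7.26 and 6.32 at week 8, 6.50 and 7.46 at week 12, and 6.00 and 7.26 at week 16. All 8 exposed arrays were again above both week 0 arrays. With Nqo1 it made 2 of the 8 genes whose exposed and week 0 DKO arrays did not overlap, against 4.42% of all genes. The difference of 1.28 ± 0.34 just missed the threshold (limma adjusted p = 0.0645). It passed without either KO week 12 array (limma adjusted p = 0.027), DKO week 8 replicate 2 (0.0471), DKO week 12 replicate 1 (0.049) or either DKO week 16 array (0.0268 and 0.0479). It also passed after repeated quantile normalization (1.79, limma adjusted p = 0.0123) and with the label number range as a block (limma adjusted p = 0.0231). Without narrow-range arrays the difference was 1.87, with 1 DKO array on each side. It did not pass with array medians aligned (limma adjusted p = 0.0981), with array weights (0.999) or with only the groups compared (0.914). In KO, Aldh3a1 read 5.84 and 5.70 at week 0 and between 5.15 and 6.94 on exposed arrays (median 6.44). In WT it read 6.50 and 7.05 at week 0 and between 5.91 and 6.53 afterwards (median 6.42). The week 0 level was thus lower in both knockouts than in WT, and 6 of 8 exposed KO arrays stood above their week 0 arrays, against 0 of 8 in WT. Neither the KO difference of 0.49 ± 0.34 nor the WT difference of -0.43 ± 0.34 passed.

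Ahrr encodes the repressor that competes with AhR for ARNT. It was a low gene, with a mean in the 13.8th percentile of all genes. In DKO it read 3.37 and 3.85 at week 0, 3.79 and 4.81 at week 4, 4.71 and 4.96 at week 8, 5.52 and 4.26 at week 12, and 4.85 and 5.69 at week 16. In 7 of 8 exposed arrays it was above both week 0 arrays, the exception being week 4 replicate 1. The difference was 1.21 ± 0.30 (limma adjusted p = 0.0535), and it was 0.89 without narrow-range arrays, with 1 DKO array on each side. It passed without either KO week 12 array (limma adjusted p = 0.0328), DKO week 0 replicate 2, DKO week 4 replicate 1, DKO week 8 replicate 1, DKO week 12 replicate 2 or either DKO week 16 array (0.0117 to 0.0406). It did not pass after repeated quantile normalization (limma adjusted p = 0.0964) or with array medians aligned (0.0652). No setting other than leaving out single arrays gave it a call. In KO, Ahrr read 3.52 and 3.87 at week 0 and between 3.39 and 4.21 afterwards. In WT it read 3.12 and 3.24 at week 0 and between 3.14 and 3.45 afterwards. The change was 0.06 ± 0.30 in KO and 0.11 ± 0.30 in WT. Only DKO arrays reached beyond 4.21. All of these but week 12 replicate 2, at 4.26, were narrow-range arrays, on which low genes read higher.

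Tiparp encodes an ADP-ribosyltransferase that dampens AhR signalling. In DKO it read 7.76 and 5.85 at week 0, 8.03 and 8.33 at week 4, 8.62 and 8.74 at week 8, 7.60 and 9.69 at week 12, and 7.76 and 6.92 at week 16. The 2 week 0 arrays stood far apart, and 6 of 8 exposed arrays exceeded both. The difference was 1.41 ± 0.46 and did not pass (limma adjusted p = 0.13). Its size depended on which week 0 array was kept: without replicate 2, a narrow-range array, it was 0.45 (limma adjusted p = 0.57), and without replicate 1 it was 2.36 (limma adjusted p = 0.0251). It passed after repeated quantile normalization (2.07, limma adjusted p = 0.00848) and with the label number range as a block (2.30, limma adjusted p = 0.00383). Without narrow-range arrays the difference was 1.94, with 1 DKO array on each side, the exposed one (9.69) being the highest of all 30 arrays. Within label numbers 22 to 33 alone it was 2.36 (limma adjusted p = 0.499). In KO, Tiparp read 7.50 and 7.42 at week 0 and between 5.66 and 7.82 on exposed arrays, the lowest being the narrow-range array. In WT it read 7.07 and 7.45 at week 0 and between 6.81 and 7.95 afterwards. The exposed and week 0 arrays of KO overlapped, as did those of WT, and the differences of -0.25 ± 0.46 and -0.10 ± 0.46 did not pass.

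**Figure D2:**
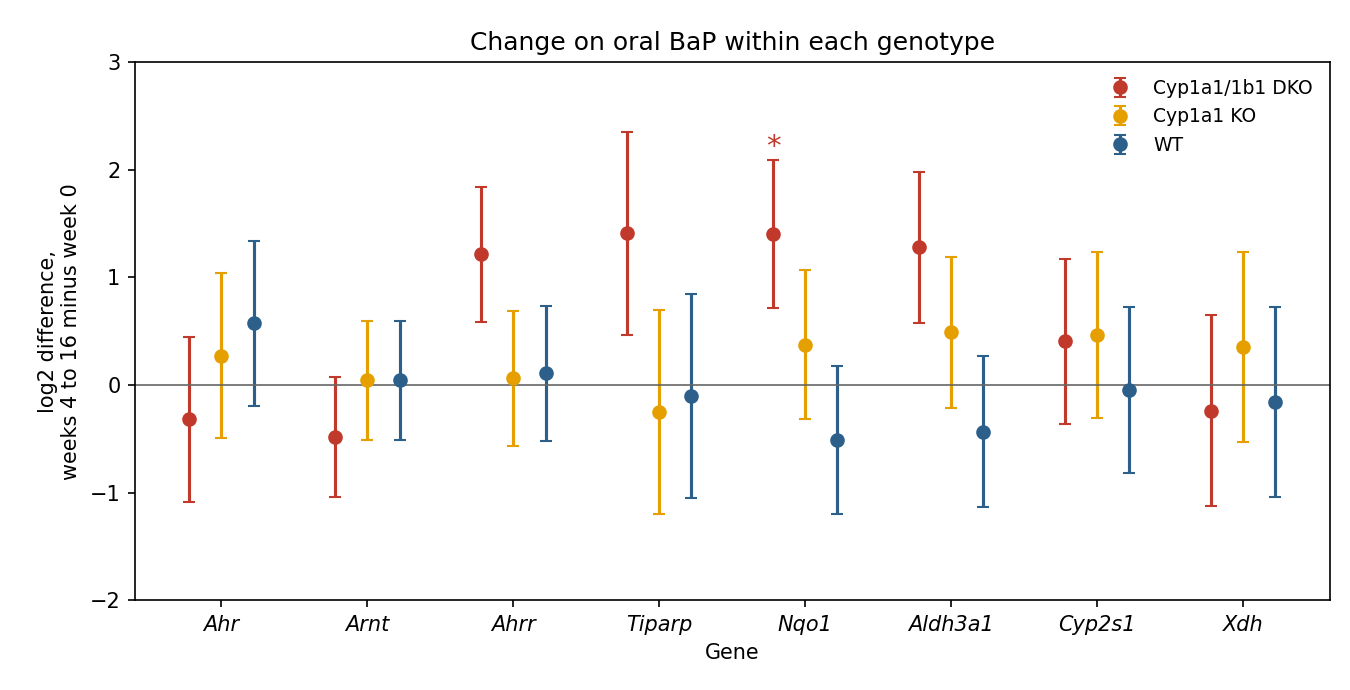
Difference in log2 intensity between weeks 4 to 16 and week 0 (vertical axis) for each of the 8 genes (horizontal axis) in DKO, KO and WT. Points are estimates of the limma model and bars their 95% intervals, and the star marks the only adjusted p under 0.05, Nqo1 in DKO. The DKO intervals of Ahrr, Tiparp, Nqo1 and Aldh3a1 lie above 0.

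Neither the receptor nor its partner was called on BaP in any genotype. Ahr read 7.23 and 6.16 in DKO at week 0 and between 5.85 and 7.01 on exposed arrays (median 6.37), and its difference was -0.32 ± 0.37 (limma adjusted p = 0.707). With the label number range as a block that difference turned positive, at 0.35. In KO, Ahr read 6.62 and 7.04 at week 0 and 6.06 to 7.79 afterwards, and in WT 6.72 and 6.10 at week 0 and 6.02 to 7.32 afterwards. The WT difference was 0.57 ± 0.37, with 7 of 8 exposed arrays above both week 0 arrays, and it did not pass (limma adjusted p = 1).

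Arnt, the partner that AhR shares with the hypoxia factors, read 7.51 and 6.71 in DKO at week 0 and between 6.13 and 7.07 on exposed arrays, none of which exceeded both week 0 arrays. Its difference was -0.48 ± 0.27 (limma adjusted p = 0.377). Its KO arrays ranged from 7.14 to 7.65 and its WT arrays from 7.40 to 7.99 over all exposed weeks, with changes of 0.04 ± 0.27 in both. Its spread over exposed arrays was an SD of 0.385 in DKO, against 0.205 in KO, the smallest of the 8 genes there, and 0.188 in WT (n = 8 each).

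Cyp2s1 encodes an epithelial cytochrome P450. It read 5.73 and 5.06 in DKO at week 0 and between 4.59 and 6.56 on exposed arrays, a spread wider than that of any KO or WT group of weeks. The difference was 0.41 ± 0.37 (limma adjusted p = 0.612) and turned negative, at -0.45, without narrow-range arrays. In KO it read 5.05 and 5.84 at week 0 and 5.28 to 6.30 afterwards, and in WT 6.53 and 6.19 at week 0 and 5.91 to 6.55 afterwards. Xdh encodes xanthine dehydrogenase, which makes uric acid from purines and serves in the secretion of milk fat droplets. It read 7.06 and 5.61 in DKO at week 0 and between 5.04 and 7.01 on exposed arrays, so the groups overlapped. Its difference was -0.24 ± 0.43 (limma adjusted p = 0.823) and turned positive, at 0.37, with the label number range as a block. In KO it read 6.62 and 7.37 at week 0 and 6.47 to 7.94 afterwards, and in WT 7.64 and 7.71 at week 0 and 7.25 to 7.82 afterwards.

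**Figure D3:**
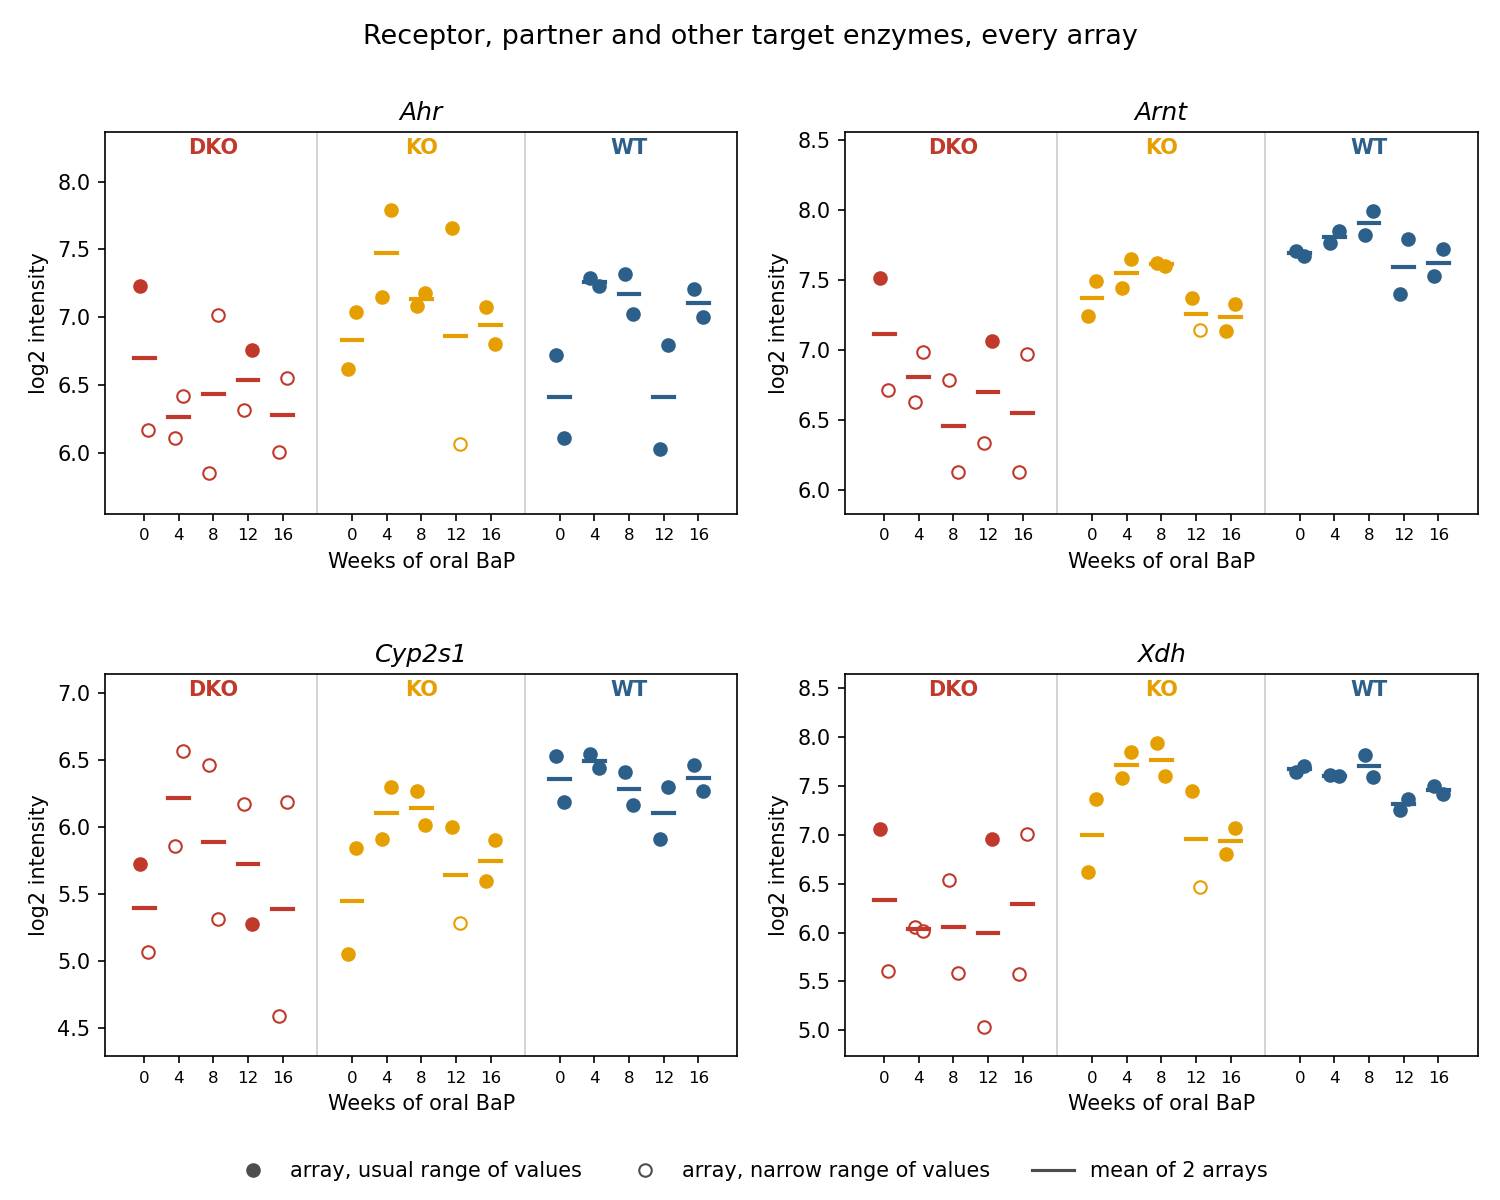
Log2 intensity (vertical axis) of Ahr, Arnt, Cyp2s1 and Xdh on each array, by genotype and weeks of BaP (horizontal axis). Circles are arrays, open where the range of values was narrow, and bars are means of 2 arrays. At weeks 4 to 16 all Arnt and Xdh values in DKO lie below those of WT, where 30.5% of all genes showed no overlap.

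In KO and in WT, limma called 0 of the 8 genes and 0 of all 18784 genes between weeks 4 to 16 and week 0. At an unadjusted p under 0.05 these were 0 of the 8 genes in both, against 258 of all genes in KO and 154 in WT. Single weeks against week 0 gave 2 calls in 96 pairs of gene and week, beside 0.507% of all such pairs over all genes. Nqo1 rose in DKO at week 12 by 1.98 ± 0.42 (limma adjusted p = 0.0336), where 0.554% of all genes were called. Ahrr rose in DKO at week 16 by 1.66 ± 0.38 (limma adjusted p = 0.0199), where 4.04% of all genes were called. The week 12 call was lost without DKO week 0 replicate 2, either DKO week 12 array, or any WT array of week 4 or 16 or KO array of week 8 (limma adjusted p = 0.0503 to 0.127). The week 16 call was lost without DKO week 0 replicate 1 (limma adjusted p = 0.111) or DKO week 16 replicate 2 (0.0775). The weekly differences of Ahrr in DKO were 0.69 at week 4, 1.23 at week 8, 1.28 at week 12 and 1.66 at week 16. Those of Nqo1 were 1.31, 1.62, 1.98 and 0.70, and those of Tiparp 1.38, 1.88, 1.84 and 0.53, so that the smallest was at week 4 for Ahrr and at week 16 for Nqo1 and Tiparp. Whether the weeks differed from each other was not tested.

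Whether the change on BaP differed between genotypes was tested directly, and 0 of the 8 genes passed. Limma called 7 of all genes (0.0373%) for DKO minus WT and 8 (0.0426%) for DKO minus KO. At an unadjusted p under 0.05 these were 4 and 3 of the 8 genes, against 891 and 1371 of all. The difference in change was largest for Nqo1 in DKO minus WT, at 1.91 ± 0.47 (limma adjusted p = 0.337), followed by Aldh3a1 at 1.71 ± 0.48 (limma adjusted p = 0.542), Tiparp at 1.51 ± 0.65 and Ahrr at 1.11 ± 0.43. Without narrow-range arrays Nqo1, Aldh3a1 and Tiparp passed for DKO minus WT, at 2.93, 2.30 and 2.04 (limma adjusted p = 0.0021, 0.000811 and 0.00428), beside 3.03% of all genes, again with 1 DKO array on each side. For KO minus WT none of the 8 genes, and none of all genes, passed. There the differences in change were 0.89 ± 0.47 for Nqo1 and 0.92 ± 0.48 for Aldh3a1 (limma adjusted p = 1 for each).

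**Figure D4:**
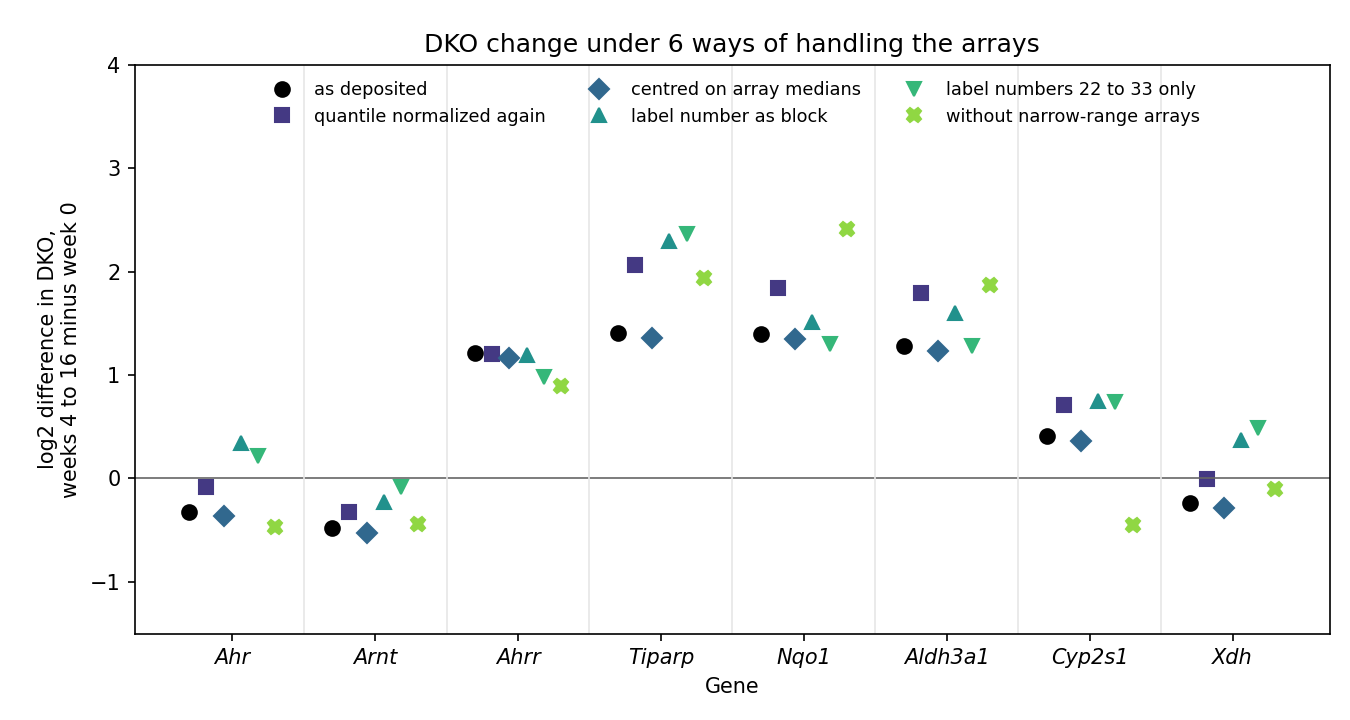
Difference in log2 intensity in DKO between weeks 4 to 16 and week 0 (vertical axis) for each gene (horizontal axis) under 6 ways of handling the arrays, 1 symbol each. Ahrr, Tiparp, Nqo1 and Aldh3a1 stay above 0 under all 6, between 0.89 and 2.42, whereas Ahr, Cyp2s1 and Xdh lie on both sides of 0.

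Ranks within each array do not depend on its range of values in the same way. In DKO, the median percentile of Tiparp among all genes of an array was 95.7 at weeks 4 to 16 and 76.5 at week 0. That of Aldh3a1 was 87.5 at weeks 4 to 16 and 56.2 at week 0, and that of Nqo1 was 78.5 at weeks 4 to 16 and 36.7 at week 0. All 8 exposed DKO arrays ranked each of these 3 genes above both week 0 arrays, and 3.77% of all genes had percentiles that did not overlap in either direction. Ahrr stood at a median percentile of 25.4 at weeks 4 to 16, with a range of 3.2 to 59.0 that takes in the range of 3.5 to 9.2 at week 0. In WT, Tiparp stood at 78.0 at weeks 4 to 16 and 78.9 at week 0.

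**Figure D5:**
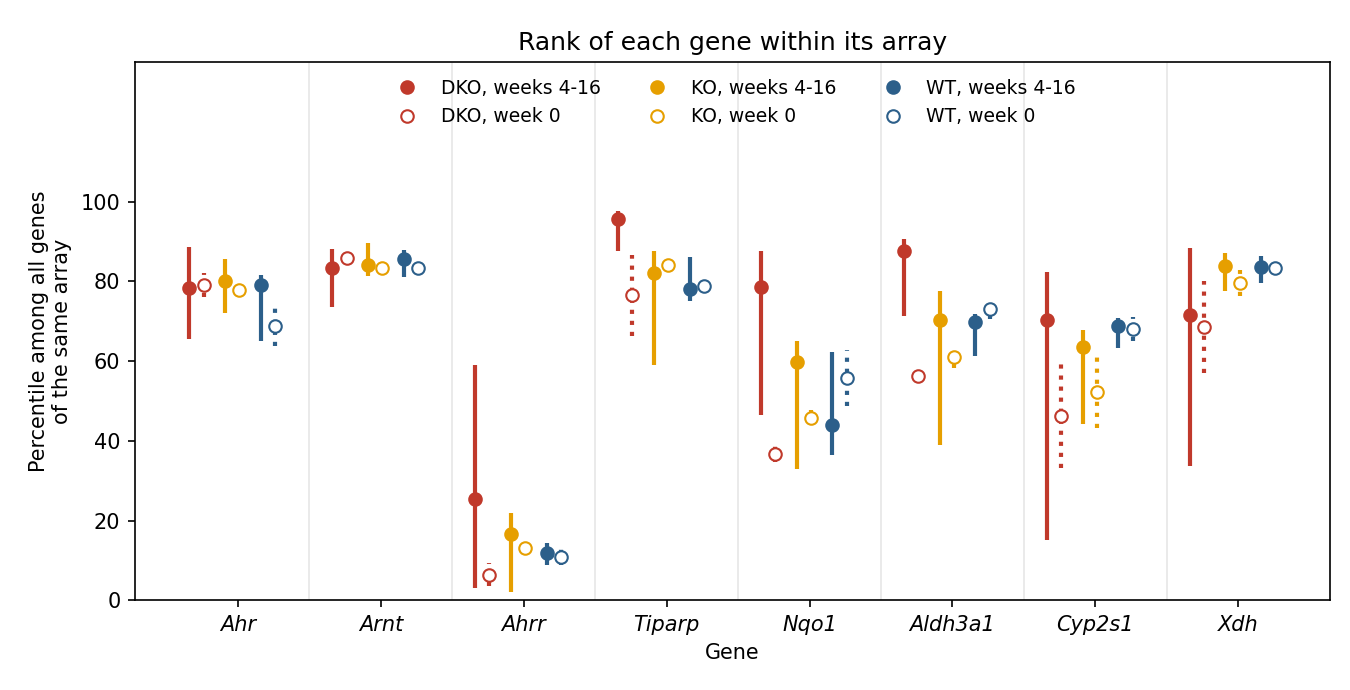
Percentile of each gene among all 18784 genes of the same array (vertical axis, 100 is the highest) for the 8 genes (horizontal axis) in DKO, KO and WT. Circles are medians, filled for the 8 arrays of weeks 4 to 16 and open for the 2 of week 0, and lines run from the lowest to the highest array. Tiparp, Nqo1 and Aldh3a1 show no overlap between exposed and week 0 arrays in DKO, beside 3.77% of all genes.

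Between genotypes on BaP, 7 of the 8 genes were called in DKO against WT at weeks 4 to 16, beside 71.5% of all genes, so most genes were called. The median difference of all genes was 0.19, and 0.055 after repeated quantile normalization. Higher in DKO were Ahrr (1.53 ± 0.19), Nqo1 (1.30 ± 0.21), Tiparp (1.05 ± 0.29) and Aldh3a1 (0.53 ± 0.21). Lower were Xdh (-1.42 ± 0.27), Arnt (-1.10 ± 0.17) and Ahr (-0.61 ± 0.23), and Cyp2s1 (-0.51 ± 0.23) was not called. The limma adjusted p of these 8 ran from 1.43e-06 for Ahrr to 0.0559 for Cyp2s1. Single arrays decided the side of the threshold for Ahr (6 of 30 arrays, limma adjusted p up to 0.0827), Aldh3a1 (9 arrays, up to 0.109) and Cyp2s1 (4 DKO arrays, down to 0.00621). No overlap between the 8 DKO and 8 WT arrays was seen for Ahrr, Arnt and Xdh, beside 30.5% of all genes. With the label number range as a block only Tiparp was called (2.83, limma adjusted p = 0.00421), with 0.804% of all genes, and Ahr and Cyp2s1 turned positive, at 0.72 and 0.18. After repeated quantile normalization 5 of the 8 genes were called, beside 34.3% of all genes. There Ahr was 0.039 and Arnt -0.27 (limma adjusted p = 0.258), and neither was called. Ahrr was 0.82, Tiparp 2.00, Aldh3a1 1.21 and Xdh -0.92 under that setting. Without narrow-range arrays 6 were called, beside 36.7% of all genes: Ahr (-0.23) and Xdh (-0.56) lost their calls and Cyp2s1 (-1.04, limma adjusted p = 0.00646) gained one. With array medians aligned Aldh3a1 lost its call (limma adjusted p = 0.121) and Cyp2s1 gained one (0.0213). Against KO, 7 of the 8 genes were called in DKO as well, beside 58.9% of all genes. Ahrr (1.07), Tiparp (1.00), Nqo1 (0.86) and Aldh3a1 (0.61) were higher and Xdh (-1.25), Arnt (-0.78) and Ahr (-0.72) lower in DKO, and the call for Aldh3a1 was lost without KO week 12 replicate 2, DKO week 8 replicate 1, DKO week 12 replicate 2 or DKO week 16 replicate 2 (limma adjusted p = 0.053 to 0.0599). It was also lost with array medians aligned (0.0589) and with only the groups compared (0.062). After repeated quantile normalization 4 genes were called, beside 25.6% of all genes, with Ahr, Arnt and Ahrr no longer among them. Without narrow-range arrays these were Tiparp, Nqo1 and Aldh3a1, beside 25.5% of all genes. These comparisons share the DKO arrays.

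KO and WT could be compared almost wholly on arrays of the usual range. At weeks 4 to 16 limma called 0 of the 8 genes in KO against WT, beside 1.5% of all genes. At an unadjusted p under 0.05 it was 1 of the 8, beside 12.5% of all genes. That gene was Ahrr, with a median log2 intensity of 3.72 on 8 KO arrays and 3.26 on 8 WT arrays, and a difference of 0.47 ± 0.19 (limma adjusted p = 0.305). Of these arrays 1, KO week 12 replicate 2, was narrow-range. Without all narrow-range arrays, 3 genes were called, beside 11.6% of all genes: Ahrr at 0.51 (limma adjusted p = 0.00397), Nqo1 at 0.51 (limma adjusted p = 0.0392) and Arnt at -0.29 (limma adjusted p = 0.0478). The KO and WT ranges of Nqo1 overlapped, at 4.75 to 6.06 in KO and 4.67 to 5.86 in WT.

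Before BaP, with 2 arrays per genotype, none of the 8 genes was called between any 2 genotypes. Limma called 3.9% of all genes for DKO against WT and none for DKO against KO or KO against WT, where 1601 and 1292 genes had an unadjusted p under 0.05. Aldh3a1 was 1.18 ± 0.43 lower in DKO than in WT (limma adjusted p = 0.0883) and 1.01 ± 0.43 lower in KO than in WT (limma adjusted p = 0.688). Without narrow-range arrays the KO difference was the same and passed (limma adjusted p = 0.00809), as did Cyp2s1 at -0.91 (limma adjusted p = 0.0256) and Xdh at -0.68 (limma adjusted p = 0.0452), beside 15.6% of all genes. On exposed arrays the Aldh3a1 difference between KO and WT was -0.09 ± 0.21.

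Among other genes of the pathway, Cyp1b1 rose on BaP in DKO by 2.13 ± 0.31 (limma adjusted p = 0.0011), beyond any of the 8 genes. Cyp1a1 differed by 0.16 and Cyp1a2 by 0.72, and neither passed. Of the chaperones and coregulators of the receptor, 8 of 10 were measured and none was called, beside 0.974% of all genes, with a median of -0.08. These included Arnt2, a relative of Arnt, at 0.67 (limma adjusted p = 0.229) and Rela, an NF-kappaB subunit, at 0.62 (limma adjusted p = 0.27). Of 14 further genes known to be AhR-inducible, 9 were measured and none was called, beside the same 0.974%, with a median of -0.21. The largest was Serpinb2, a plasminogen activator inhibitor, at 1.05 (limma adjusted p = 0.152). Nqo1 also answers to NRF2, the oxidative stress factor. Of 12 other NRF2 targets 11 were measured and none was called in DKO on BaP, again beside 0.974% of all genes, with a median of -0.12. Within them Gsr, glutathione reductase, read 0.89 (limma adjusted p = 0.0806) and Slc7a11, the cystine transporter, 1.66 (limma adjusted p = 0.12), while Gclc, the catalytic subunit of the enzyme that starts glutathione synthesis, read -1.33 (limma adjusted p = 0.214). In DKO against WT at weeks 4 to 16, 8 of the 11 were lower, beside 30% of all genes, and 1 was higher, beside 41.5%, with a median of -1.20. At week 0 the median of DKO against WT was already -1.16, with 2 of the 11 lower, beside 3.2% of all genes. High genes read lower on narrow-range arrays. With only the 9392 brighter genes fitted, 5434 were lower in DKO than in WT at weeks 4 to 16, with a median of -0.63. At week 0 these were 954, with a median of -0.51. How far the narrow range accounts for the NRF2 target values was not tested.

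Some markers of other cells were also called higher in DKO on BaP. Of 8 cornified keratinocyte markers 3 were called higher on BaP (Krt1, Krt10 and Sprr2d), beside 0.57% of all genes. Sprr1b (2.47), Krtdap (0.75), Ivl (0.64), Tgm3 (0.38) and Lor (0.11) were not called. The mean of the list was 7.29 to 9.99 on exposed DKO arrays and 6.75 to 7.12 at week 0. Of 8 neutrophil markers 4 were called higher (S100a8, S100a9, Cxcr2 and Mmp8), beside the same 0.57%. Ngp (0.61), Camp (0.44), Csf3r (0.32) and Ly6g (0.18) were not called. The list means were 4.82 to 6.97 on exposed DKO arrays and 4.16 to 4.63 at week 0. None of 9 sebocyte markers was called, beside 0.974% of all genes. Their list mean was 5.92 to 7.58 on exposed DKO arrays and 7.35 to 8.02 at week 0. At weeks 4, 8, 12 and 16 the DKO median difference from week 0 was 0.63, 1.92, 2.38 and 1.82 over the cornified markers. Over the neutrophil markers it was 0.34, 1.12, 0.89 and 1.39. Whether the markers and the 8 genes changed together was not tested. Neither was the part of these cells in the values of the 8 genes.

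As a description of which genes ran together, correlations were taken over the 15 group means and again over the 21 arrays of the usual range. These points share arrays and, for DKO, the narrow range. Nqo1 and Aldh3a1 ran together over groups (r = 0.78), over usual-range arrays (r = 0.82) and over the 10 DKO arrays (r = 0.83). Tiparp and Nqo1 correlated at 0.77 over groups and 0.65 over usual-range arrays. Arnt ran with Xdh (0.94 and 0.74) and against Ahrr (-0.93 and -0.78). Ahr was close to none of the other 7 on usual-range arrays, its strongest being Xdh at 0.31. The pair nearest to each over groups was then taken over all genes but predicted gene models (Gm, Rik, LOC, BC and AK symbols). It was Abca9 and Nfat5 for Ahr (0.93 for both), Aco1 and Gclc for Arnt (0.98 for both), and Tbx19 and Tspan1 for Ahrr (0.98 for both). Tiparp was nearest to Pof1b (0.91) and Nkg7 (0.88), Nqo1 to Edc3 (0.85) and Dpysl3 (0.83), and Aldh3a1 to Glul (0.84) and Cyth1 (0.83). Cyp2s1 was nearest to Napa and Cog1 (0.91 for both), and Xdh to Copa and Prpf8 (0.98 for both). On usual-range arrays these 16 pairs ranged from 0.42 for Aldh3a1 with Cyth1 to 0.91 for Xdh with Copa.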

How the data were processed

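The deposited values are log2 intensities, which the authors obtained with RMA (background correction, quantile normalization and probe summary), per the submitters' processing notes. Genome build and annotation are not given in the sources used here. Of 21212 probe sets, 18786 had 1 symbol in the platform annotation, 6 several and 2420 none, and the probe set with the highest mean stood for each of 18784 genes, with no filter. The number of arrays, 2 per group, limits precision.

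A limma 3.58.1 model (R 4.3.3) gave each of 15 groups a mean over all 30 arrays, with 15 residual and 6.91 prior degrees of freedom. Tests were two-sided, p-values were Benjamini-Hochberg adjusted over all genes within each comparison, and genes were called at an adjusted p under 0.05. The code was tested on simulated data. Errors after ± are standard errors. Replicates are separate mice per the labels' protocols. Every gene has 1 spread for all groups, although array weights were 0.178 to 0.350 in DKO, 0.189 to 3.11 in KO and 1.44 to 6.39 in WT.

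The 8 genes, lists and alternatives were chosen with earlier results of these data known. All 8 are named throughout, with the 2 genes most correlated to each (predicted gene models left out), Cyp1a1 and Cyp1b1. Up to 4 genes of each pathway list were taken by smallest adjusted p, of which the text gives some. Alternatives were quantile normalization, median centring, a filter on dim genes, a variance trend, array weights, smaller fits, blocks for replicate and label number, label number ranges, and leaving out narrow-range arrays or single arrays.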

Additional observations from a re-analysis of the deposited data

How the results depend on the processing

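The count of the 8 genes called in the DKO change was 1 as reported. It was 3 after quantile normalization, with a label number block and without narrow-range arrays, and 0 after median centring, with array weights, with only the groups compared, with the replicate block and within label numbers 22 to 33. It ran from 0 to 3 when single arrays were left out, 3 without either KO week 12 array, since all groups share 1 spread. All genes called numbered 183 as reported, and 413, 146, 2, 9, 158, 606, 12 and 1482 under quantile normalization, median centring, array weights, only the groups compared, the replicate block, the number block, numbers 22 to 33 and without narrow-range arrays. The replicate block changed no other count of the 8 genes. Deviations of same-numbered replicates had a median r of -0.02 over 105 pairs of groups (range -0.55 to 0.67). In 16 of these pairs of groups r was above 0.1. Such a median cannot show whether the numbers pair mice in some groups.

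For DKO against WT at weeks 4 to 16 the 7 calls became 1 with the number block (0.804% of all genes). They became 5 with quantile normalization (34.3%) and 6 with the dim-gene filter (65.8% of the genes kept). With a variance trend and with array weights they became 8, beside 72.2% and 70% of all genes. Cyp2s1 was gained there (limma adjusted p = 0.0438 and 0.0476). With single arrays left out the calls for DKO against WT ran from 5 to 7. In that comparison Ahr turned to 0.039 with quantile normalization and 0.72 with the number block, and Cyp2s1 to 0.18 with that block. For DKO against KO the 7 calls became 4, 1, 0 and 3 with quantile normalization, the number block, numbers 22 to 33 and without narrow-range arrays (25.6%, 0.538%, 0.0213% and 25.5% of all genes), and 6 to 7 with single arrays left out. There Ahr turned to 0.44 with the number block and 0.32 within numbers 22 to 33. All genes called in DKO against WT were 58% higher as reported, 49.2% with quantile normalization, 51.4% with median centring and 12.1% with the dim-gene filter, which removed Ahrr. For KO against WT at weeks 4 to 16 the 0 calls became 1 with array weights, 1 with only the groups compared, 3 within label numbers 1 to 20 and 3 without narrow-range arrays (8.49%, 7.71%, 11.6% and 11.6% of all genes). At week 0 they became 3 within label numbers 1 to 20 and without narrow-range arrays (15.6% of all genes in each), and those of DKO against WT 1 in each (10.1%), with 0 to 2 when single arrays were left out (2 without DKO week 0 replicate 1). The interactions of DKO with WT and with KO had 0 calls and 3 each without narrow-range arrays (3.03% and 6.27% of all genes). The 2 single-week calls became 9 with quantile normalization (1.28% of all pairs of gene and week), 8 with the number block (1.18%), 1 with the dim-gene filter (0.559%), and 0 with array weights, only the groups compared and either number range (0.00754% to 0.0519%), and 1 to 4 with single arrays left out. Counts in KO and WT on BaP stayed at 0 under every setting. The causes were not tested. Narrow-range DKO arrays limit every DKO value.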
